A study of Rattus norvegicus with 25 samples.

Results

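Genes that mark astrocytes or carry glutamate into them were followed through postnatal life in rat prefrontal cortex, the front part of the cerebral cortex. They were taken by Ensembl gene ID, 6 of the 29516 IDs in the table: Slc1a2 (ENSRNOG00000005479), Slc1a3 (ENSRNOG00000016163), Gja1 (ENSRNOG00000000805), Aqp4 (ENSRNOG00000016043), Gfap (ENSRNOG00000002919) and S100b (ENSRNOG00000001295). All 6 were in the table and all 6 were above 0 in each library. The table lists IDs without gene names, so the pairing of these IDs with their symbols was not read from it. RNA sequencing of ribosome-depleted total RNA covered medial prefrontal cortex of Wistar rats of wild-type genotype (WT) at 5 ages from postnatal day 8 (P8) through P14, P21 and P35 to P70. There were 25 libraries, 5 for every age, and the labels name no treatment. Whether the 5 libraries of an age are 5 animals is not stated, so p-values reflect the spread among libraries, which may be partly technical. Neither sex nor pooling of animals is given in the sources used here.

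Astrocytes are glial cells that surround synapses and blood vessels. They clear released glutamate from the extracellular space mainly through the membrane transporters, GLT-1 (product of Slc1a2) and GLAST (product of Slc1a3), and turn it into glutamine, which neurons reuse. In rodent cortex astrocytes multiply and mature over the first weeks after birth, GLAST being known as the earlier transporter and GLT-1 as the main one of the adult forebrain. Gja1 encodes connexin 43, which joins astrocytes through gap junctions, and Aqp4 encodes aquaporin-4, the water channel of astrocyte endfeet. Gfap encodes the intermediate filament protein of astrocytes, which is more abundant in white matter and at the pial surface than in cortical grey matter. S100b encodes a calcium-binding protein that is made by astrocytes and also by cells of the oligodendrocyte lineage.

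Levels are given in FPKM, fragment counts scaled by transcript length and by sequencing depth. Setting levels of different genes beside each other rests on the transcript lengths used, which were not given. Changes are differences in mean log2(FPKM + 0.5) with their standard error (SE), tested with limma over all 14128 gene IDs with at least 1 FPKM in at least 5 libraries. A gene was called at a Benjamini-Hochberg adjusted p under 0.05. Library depth relative to the median library ran from 0.386 in P21 replicate 5 and 0.447 in P70 replicate 2 to 1.31 in P21 replicate 4. FPKM totals differed 3.49-fold between libraries, and 37.8% to 67% of a library's total lay in its 10 highest IDs. Whole reads could be recovered from the values of Gja1 (989 to 4596 reads per library) and S100b (317 to 6394). For the other 4 genes none were recovered, with 20 to 20000 reads tried for the lowest library, and their depth is unknown. In bulk tissue, fewer cells of a type and less RNA per cell cannot be told apart. Marker genes of other cell types, and the tissue label, were not checked here, because no name could be attached to the other IDs.

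All 6 genes differed over the 5 ages (limma F-test, adjusted p from 5.68e-13 for Slc1a2 to 0.00379 for Slc1a3), in a table where 55.5% of the gene IDs tested did. From P8 to P14, 5 of the 6 rose and Gfap was not called, against 13.6% of all gene IDs tested that rose. From P14 to P21, 4 rose (Slc1a2, Gja1, Gfap and S100b), against 5.17% of all. No member was called from P21 to P35 (0 of 6, with 1.62% of all called in either direction), from P35 to P70 (0 of 6, 0.12%) or from P21 to P70 (0 of 6, 6.12%). Before adjustment, limma gave a p under 0.05 for 1 member from P21 to P35 (S100b, 0.0142). It gave such a p for 1 member from P35 to P70 (Slc1a3, 0.0408) and for 3 from P21 to P70 (Aqp4, Slc1a3 and S100b). At P70, 5 of 6 were above P8, all but Slc1a3, beside 19.9% of all. The median change of the 6 from P8 to P70 was 1.15 log2 units, against -0.16 for all IDs tested. With FPKM totals made equal between libraries, 3 members were called from P8 to P14, 0 from P14 to P21 and 3 from P8 to P70. The calls lost from P8 to P14 were those of Aqp4 and Slc1a3, whose changes were larger in that setting (0.87 and 0.65 log2 units against 0.61 and 0.38 as deposited). From P8 to P70 the same held for Gfap and Aqp4 (0.82 and 0.50 against 0.69 and 0.37). From P14 to P21 the 4 lost changes were smaller, at 0.41 to 0.89 against 0.74 to 1.21.

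**Figure D1:**
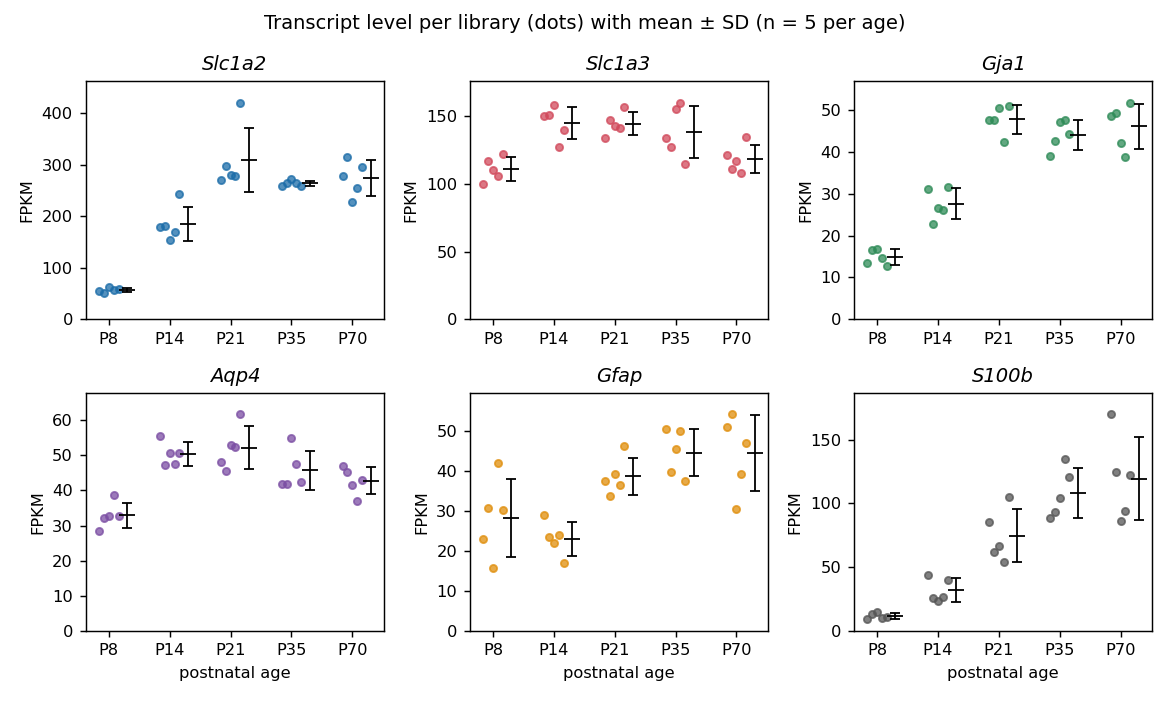
Level of each gene in FPKM (y axis, linear, from 0) at the 5 ages (x axis, not to scale in days). Each dot is a library and the bar beside it is the mean ± SD of 5 libraries. Slc1a2, Gja1 and S100b at P70 lie above their P8 values with no overlap, Slc1a3 and Aqp4 reach their highest means at P14 and P21, and Gfap starts to rise after P14.

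Because the courses of the transporters differ, the promoter windows of both are shown, with that of S100b, the gene with the largest rise. The windows are the 250 bases before the most upstream RefSeq start of each gene in assembly GRCr8, read 5′ to 3′ on the gene's strand. Slc1a3 had 3 starts listed and Slc1a2 and Aqp4 2 each, and the other starts were not searched for these genes. Which start is used in this tissue was not tested. The IDs were matched to RefSeq by symbol, and all 6 had an entry. Capitals mark matches on either strand to the motifs searched: TTGGCA and the full nuclear factor I palindrome, TTCNNNGAA (STAT sites), CANNTG (E-boxes) and TATAAA.
Slc1a2 (chr3:109459859-109460108, + strand): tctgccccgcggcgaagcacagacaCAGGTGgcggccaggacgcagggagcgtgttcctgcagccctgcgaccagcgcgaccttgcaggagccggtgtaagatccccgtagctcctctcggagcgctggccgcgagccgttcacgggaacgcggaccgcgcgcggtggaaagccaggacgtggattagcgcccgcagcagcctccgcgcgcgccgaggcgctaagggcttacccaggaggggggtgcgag
Slc1a3 (chr2:59557809-59558058, - strand): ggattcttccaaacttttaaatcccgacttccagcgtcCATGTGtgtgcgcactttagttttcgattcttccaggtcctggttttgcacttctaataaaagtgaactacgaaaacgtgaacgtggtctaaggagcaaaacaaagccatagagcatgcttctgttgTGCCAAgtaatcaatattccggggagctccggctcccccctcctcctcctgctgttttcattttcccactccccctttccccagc
S100b (chr20:12381082-12381331, - strand): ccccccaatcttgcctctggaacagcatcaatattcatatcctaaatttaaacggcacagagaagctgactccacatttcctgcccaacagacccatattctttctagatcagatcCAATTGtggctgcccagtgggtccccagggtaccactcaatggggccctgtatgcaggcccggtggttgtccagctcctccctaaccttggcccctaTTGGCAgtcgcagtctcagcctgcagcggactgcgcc
The window of Slc1a2 was 71.2% G and C, that of Slc1a3 48% and that of S100b 54.8%, where the median of 33469 windows of this length was 51.2%. TTGGCA was found 1 time each in the windows of Slc1a3 and S100b and in none of the other 4 genes, and 12% of all windows held it. CANNTG was in 5 of the 6 windows, all but that of Gfap, with 5 matches in Aqp4 and 1 in each of the others, against 65.5% of all windows. TATAAA, TTCNNNGAA and the nuclear factor I palindrome were in 0 of the 6, and in 12.9%, 7.67% and 0.0359% of all windows. A match describes letters only and is not evidence of a bound site.

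Slc1a2 was low at P8 and rose in 2 steps to a level that then held. Its levels at P8 were 54.7, 51.7, 61.9, 56 and 59.4 FPKM in replicates 1 to 5. At P14 they were 179, 181, 153, 169 and 242 FPKM, and the lowest of these exceeded every P8 library. At P21 they were 270, 297, 280, 277 and 420 FPKM, again with no overlap with the age before. P35 libraries were close together at 259, 265, 271, 265 and 258 FPKM, and P70 libraries were at 278, 314, 227, 254 and 295 FPKM. The rise from P8 to P14 was 1.68 ± 0.13 log2 units (SE, n = 5 per age), 3.2-fold, with a limma adjusted p of 1.47e-09. From P14 to P21 it rose a further 0.74 ± 0.13 (limma adjusted p = 0.000326), and by P21 it had covered 107% of its change between P8 and P70. Ordered by mean, the ages ran P8, P14, P35, P70, P21. The last 3 did not differ beyond their spread (limma adjusted p = 0.571 for P35 against P21, 1 for P70 against P35 and 0.557 for P70 against P21).

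A single library stood apart in that course. P21 replicate 5, the least deep of all libraries, held the highest value of its age for all 6 genes, and its Slc1a2 level was 420 FPKM against 270 to 297 in the other 4. Without it the P21 mean of Slc1a2 was 281 ± 11.5 FPKM (SD, n = 4) instead of 309 ± 62.8 (SD, n = 5). The rise from P14 to P21 was then 0.62 log2 units and was still called. In the same library the 10 highest IDs held 67% of the FPKM total, the largest such share of the 25 libraries. The part of depth or of this share in its values was not tested.

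Slc1a3 began high and moved little. Its P8 libraries were at 100, 117, 110, 106 and 122 FPKM in replicates 1 to 5, all above the P8 libraries of Slc1a2. P14 libraries reached 150, 151, 158, 127 and 140 FPKM, all above the highest P8 library. P21 libraries spanned 134 to 157 FPKM and P35 libraries 115 to 160, and at P70 the values were 121, 111, 117, 108 and 135 FPKM, overlapping those of P8. The rise from P8 to P14 was 0.38 ± 0.10 log2 units (SE, n = 5 per age), 1.3-fold (limma adjusted p = 0.00521). P70 against P8 was 0.09 ± 0.10 (limma adjusted p = 0.464). With libraries scaled by the median of gene-wise ratios that difference was 0.26 and was called (limma adjusted p = 0.016). That scaling moved the median change of all gene IDs from P8 to P70 from -0.158 to -0.011.

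Ordered by mean, the ages of Slc1a3 ran P8, P70, P35, P21, P14, and only the steps from P8 up to P14, P21 and P35 and the fall from P14 to P70 were called. From P14 to P70 it fell by 0.29 ± 0.10 log2 units (limma adjusted p = 0.0254), a contrast chosen after the levels were seen, in which 23.5% of all gene IDs tested fell. Being called above both P8 and P70 at P14 was seen for 2.1% of all gene IDs tested. The fall was not called with median-of-ratios scaling (-0.16, limma adjusted p = 0.162) or quantile normalization (-0.16, adjusted p = 0.46). It was as large or larger, but also not called, with FPKM totals made equal (-0.42, limma adjusted p = 0.566) and in a fit of the 2 ages only (-0.29, adjusted p = 0.0795). A random block on the number that follows the age in each sample title gave -0.28 (limma adjusted p = 0.0818). The call was also lost without P14 replicate 1 or 3 or P70 replicate 2 or 4 (limma adjusted p = 0.0509 to 0.0688). Neighbours in that order above P8 were not called against each other, although P35 to P70 had a limma p of 0.0408 before adjustment.

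In FPKM the balance between the transporters reversed between P8 and P14. The point at which they cross rests on the transcript lengths used, which were not given. Slc1a2 made up 33.9% ± 2.14 of the summed FPKM of both at P8 (SD, n = 5) and 55.7% ± 5.11 at P14. It reached 67.8% ± 2.83 at P21, 65.7% ± 2.78 at P35 and 69.7% ± 2.81 at P70. In 0 of 5 libraries at P8, 4 of 5 at P14 and 5 of 5 at each later age Slc1a2 was the higher of the pair. The exception at P14 was replicate 3, at 49.3%. The sum of both went from 168 ± 10.3 FPKM at P8 to 330 ± 32.4 at P14 and 453 ± 70.3 at P21, and was 392 ± 38.1 at P70 (SD, n = 5).

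A ratio of 2 genes within a library does not depend on how that library was scaled. The log2 ratio of Slc1a2 to Slc1a3 rose by 1.3 ± 0.15 from P8 to P14 and by 0.74 ± 0.16 from P14 to P21 (SE, n = 5 per age). Both steps had an exact two-sided permutation p of 0.00794, the smallest that 5 against 5 allows, with an adjusted p of 0.0186 over 75 ratio tests (15 pairs by 5 contrasts). The ratio moved by -0.14 ± 0.12 from P21 to P35 (exact permutation, adjusted p = 0.373) and by 0.26 ± 0.12 from P35 to P70 (exact permutation, adjusted p = 0.0992). Leaving out any library of the 2 ages kept the first 2 steps past the threshold, at 1.18 to 1.39 and 0.65 to 0.85.

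**Figure D2:**
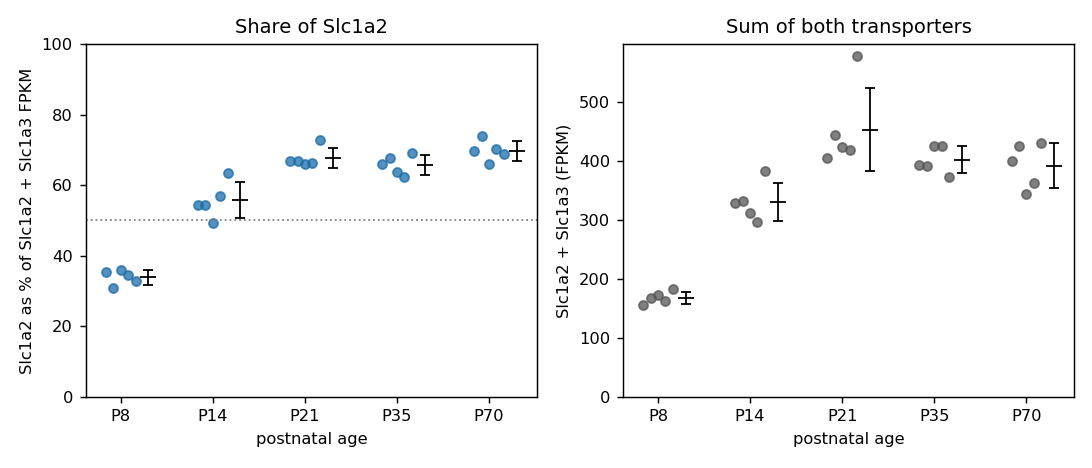
Left, Slc1a2 as a percentage of the summed FPKM of Slc1a2 and Slc1a3 (the dotted line marks 50%); right, the sum in FPKM. Each dot is a library, with mean ± SD of 5 beside it, and ages are on the x axis. P8 libraries lie at 30.7% to 36% and P70 libraries at 66% to 73.8%.

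Gja1, the connexin gene, rose in 2 nearly equal steps. Its P8 libraries were at 13.5, 16.6, 16.9, 14.6 and 12.6 FPKM and its P14 libraries at 31.2, 22.7, 26.7, 26 and 31.7 FPKM in replicates 1 to 5. P21 libraries were at 47.7, 47.6, 50.5, 42.4 and 51 FPKM. None of the 3 ages overlapped the next. The changes were 0.87 ± 0.10 log2 units from P8 to P14 (SE, n = 5 per age, limma adjusted p = 8.44e-07) and 0.79 ± 0.10 from P14 to P21 (limma adjusted p = 1.16e-05). P35 and P70 libraries lay between 38.8 and 51.8 FPKM, and P21, P35 and P70 did not differ beyond their spread (limma adjusted p = 0.734 to 1 for the 3 pairs). The means of those ages were 47.8 ± 3.42, 44.1 ± 3.54 and 46.2 ± 5.44 FPKM (SD, n = 5). Within an age the Gja1 values varied 3.86 to 6.33 times as much as counting of its reads alone would give.

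Aqp4, the water channel gene, made its whole rise in the first step. It went from 32.9 ± 3.6 FPKM at P8 to 50.3 ± 3.34 at P14 (SD, n = 5), and the P8 libraries (28.5 to 38.6) stayed below those of P14 (47.2 to 55.4). The change was 0.61 ± 0.10 log2 units (SE, limma adjusted p = 4.71e-05). From P14 to P21 it was 0.05 ± 0.10 (limma adjusted p = 0.796), with P21 libraries at 45.6 to 61.7 FPKM. The P35 mean was 45.7 ± 5.64 FPKM and the P70 mean 42.8 ± 3.81 (SD, n = 5). All P70 libraries (37.1 to 47 FPKM) were below the lowest of P14 by a narrow margin, a separation seen for 13.6% of all gene IDs tested. The fall was not called (-0.23 ± 0.10 log2 units, limma adjusted p = 0.0679). Leaving out 1 library gave a limma adjusted p of 0.0491 (without P70 replicate 1) to 0.187 (without P70 replicate 4). The fall was -0.10 with median-of-ratios scaling (limma adjusted p = 0.471) and -0.05 with quantile normalization (limma adjusted p = 0.762). It was -0.36 with FPKM totals made equal (limma adjusted p = 0.619). P70 remained above P8 by 0.37 ± 0.10 (limma adjusted p = 0.00241). In the order P8, P70, P35, P14, P21, neighbours above P8 did not differ beyond their spread.

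Gfap, the filament gene, was the exception in the first step. Its P8 libraries were widely scattered at 23, 30.7, 15.7, 42.1 and 30.2 FPKM in replicates 1 to 5. The P14 libraries, at 29, 23.5, 21.9, 24 and 17.1 FPKM, lay within that range, and the change was -0.24 ± 0.20 log2 units (SE, n = 5 per age, limma adjusted p = 0.396). At P21 the values were 37.6, 33.8, 39.3, 36.5 and 46.4 FPKM, all above the highest of P14. That rise was 0.75 ± 0.20 log2 units (limma adjusted p = 0.0101). P35 libraries were at 37.5 to 50.6 FPKM and P70 libraries at 30.6 to 54.3. P70 exceeded P8 by 0.69 ± 0.20 log2 units (limma adjusted p = 0.00485), although the libraries of these ages overlapped. Ordered by mean, the ages ran P14, P8, P21, P70, P35, and among neighbours only P8 to P21 was called (0.51 ± 0.20, limma adjusted p = 0.0341). Gfap had a larger spread at P8 than 92.4% of the gene IDs tested, with an SD of 0.52 log2 units against a median of 0.15.

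S100b had the largest rise of the 6. Its P8 libraries were at 9.24, 13.4, 14.6, 10.1 and 10.8 FPKM in replicates 1 to 5, from 317 to 584 reads each. P14 libraries were at 44.1, 26.1, 23.3, 26.7 and 40 FPKM and P21 libraries at 85.5, 61.8, 66.5, 54.3 and 105 FPKM. P35 libraries were at 88.3, 92.9, 104, 135 and 121 FPKM, and those of P70 at 170, 125, 86.6, 94.1 and 122 FPKM. Libraries of P8, P14 and P21 did not overlap, while those of P21, P35 and P70 did. The steps were 1.4 ± 0.21 log2 units from P8 to P14 (SE, limma adjusted p = 1.97e-05) and 1.21 ± 0.21 from P14 to P21 (limma adjusted p = 0.000268). They were 0.56 ± 0.21 from P21 to P35 (limma adjusted p = 0.235) and 0.12 ± 0.21 from P35 to P70 (limma adjusted p = 1). From P8 to P70 it rose 9.74-fold (3.28 ± 0.21 log2 units, limma adjusted p = 5.57e-12). With sign kept, that change was above those of 99.9% of gene IDs tested. It had covered 42.5% of that change at P14, 79.5% at P21 and 96.4% at P35. Neither P35 nor P70 was called against P21 (limma adjusted p = 0.0578 for P70 against P21).

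**Figure D3:**
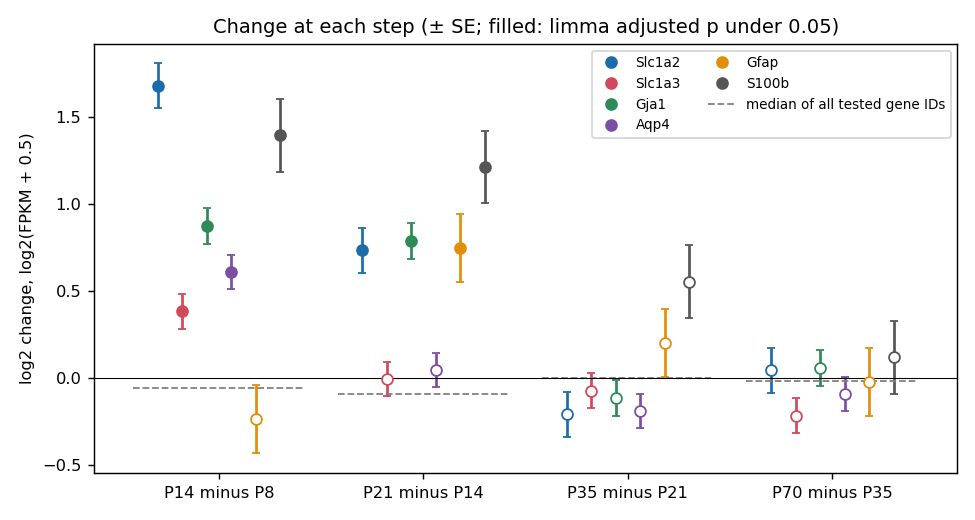
Change of each gene at the 4 steps between neighbouring ages, in log2 units of FPKM + 0.5 (y axis), with SE bars from limma. Filled points passed an adjusted p of 0.05, open points did not, and dashed lines mark the median of all 14128 gene IDs tested. Filled points occur only at the first 2 steps, with Gfap open at the first and Slc1a3 and Aqp4 open at the second.

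The genes did not keep step with each other. Over P8 to P70, 11 of the 15 ratios between members changed (exact two-sided permutation tests, adjusted p under 0.05 over 75 tests), as did 10 over the first step and 8 over the second. Ratios of other gene IDs were not computed, so the counts of changed ratios, here and below, have no background beside them. Slc1a2 rose more than Slc1a3, Gja1, Aqp4 and Gfap over the whole span, and S100b rose more than each of the other 5. The ratio of Slc1a3 to Aqp4 passed the threshold in none of the 5 contrasts. Its difference from P8 to P70 was -0.28 ± 0.10 log2 units (exact permutation p = 0.032 before adjustment, adjusted p = 0.0567). The pair Slc1a2 and Gja1 parted at the first step by 0.81 ± 0.14 log2 units (exact permutation, adjusted p = 0.0186) and differed by -0.05 ± 0.14 at the second (exact permutation, adjusted p = 0.813).

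Ratios also moved after P21, where no single member was called. The adjustments differ, since ratios were adjusted over the ratio tests only and single genes over all gene IDs tested. Before adjustment, S100b from P21 to P35 had a limma p of 0.0142. Calls of ratios and of single genes are therefore not directly comparable. From P21 to P35, 8 of the 15 ratios changed, all of them pairs that hold S100b or Gfap. S100b gained on Slc1a2 (the log2 ratio of Slc1a2 to S100b moved by -0.76 ± 0.17), on Gja1 (-0.67 ± 0.16) and on Aqp4 (-0.74 ± 0.19), each with an exact permutation adjusted p of 0.0186. Gfap gained on Slc1a2 (-0.41 ± 0.11) and on Aqp4 (-0.39 ± 0.10), each also at an exact permutation adjusted p of 0.0186. These 5 stayed past the threshold without any 1 library of P21 or P35, whereas those of Slc1a3 to S100b, Slc1a3 to Gfap and Gja1 to Gfap were lost without some (largest adjusted p 0.0887, 0.051 and 0.0868 in exact permutation tests). From P35 to P70, 0 of 15 ratios passed (2 had an unadjusted exact permutation p of 0.0317, the lowest of that step).

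Counts of members whose libraries did not overlap between ages followed the same course. Between P8 and P14, 5 of 6 were higher at P14 in every library, beside 9.51% of all gene IDs tested. Between P14 and P21 it was 4 of 6, beside 3.79%. Between P8 and P70 it was 3 of 6 (Slc1a2, Gja1 and S100b), beside 15.5%. The number called higher was 6 of 6 at P21 against P8 (18.3% of all) and 6 of 6 at P35 against P8 (19.2%). It was 4 of 6 at P35 against P14 (9.34%) and 4 of 6 at P70 against P14 (11.2%), with Slc1a2, Gja1, Gfap and S100b in both.

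Levels placed the transporters among the most abundant transcripts. Slc1a3 was above 96.7% to 97.8% of the gene IDs tested at each age. Slc1a2 was above 93.2% at P8 and 98.2% to 99% from P14 on. S100b moved from above 66.6% of IDs at P8 to above 97.5% at P70, and Gja1 from 73.1% to 93.1%. At P8 the members ranked by mean FPKM as Slc1a3, Slc1a2, Aqp4, Gfap, Gja1 and S100b. At P70 Slc1a2 led, S100b (120 ± 32.8 FPKM) and Slc1a3 (118 ± 10.2) were level within their spread, and Gja1, Gfap and Aqp4 lay at 46.2 ± 5.44, 44.5 ± 9.57 and 42.8 ± 3.81 (SD, n = 5).

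Libraries of 1 age still differed from each other, and as deposited the members tended to deviate in the same direction. Deviations from the age mean were correlated positively in 15 of 15 pairs of genes (Pearson's r 0.04 to 0.75 across 25 libraries, age means removed), and 3 pairs passed by Pearson's r and 6 by Spearman's rho. With median-of-ratios scaling 3 passed by Pearson's r and 2 by Spearman's rho. Pairs of other gene IDs were not computed, so these counts have no background beside them. Gja1 and S100b were most alike (r = 0.747, Spearman's rho = 0.792, permutation adjusted p = 0.00225 and 0.0006 over 15 pairs), and r was 0.745 without the 2 libraries of most extreme Gja1. Slc1a2 and S100b (r = 0.594, rho = 0.598, permutation adjusted p = 0.0496 and 0.0281) had r = 0.452 without the 2 libraries of most extreme Slc1a2. Gja1 and Aqp4 (r = 0.514, rho = 0.577, permutation adjusted p = 0.0496 and 0.026) had r = 0.431 without the 2 of most extreme Gja1. With median-of-ratios scaling 12 of 15 pairs were positive. Gja1 with S100b then had r = 0.646 (permutation adjusted p = 0.0189), and 0.562 without the 2 libraries of most extreme Gja1. Slc1a2 with S100b was then not called (r = 0.52, permutation adjusted p = 0.0743), and had r = 0.226 without the 2 of most extreme Slc1a2. Slc1a3 with Aqp4 passed only with that scaling by Pearson's r (0.566, permutation adjusted p = 0.0329, against 0.505 and 0.0592 as deposited). As deposited, all 6 genes were above their age means in 4 libraries (P21 replicate 5, P35 replicate 4 and P70 replicates 1 and 5) and below in 3 (P8 replicate 1 and P70 replicates 3 and 4). Median-of-ratios scaling divided the first 4, in that order, by 0.961, 1.13, 1.04 and 1.07, and the last 3 by 1.08, 0.822 and 0.897. Such libraries were not counted after that scaling, and the part of scaling in these counts was not tested.

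**Figure D4:**
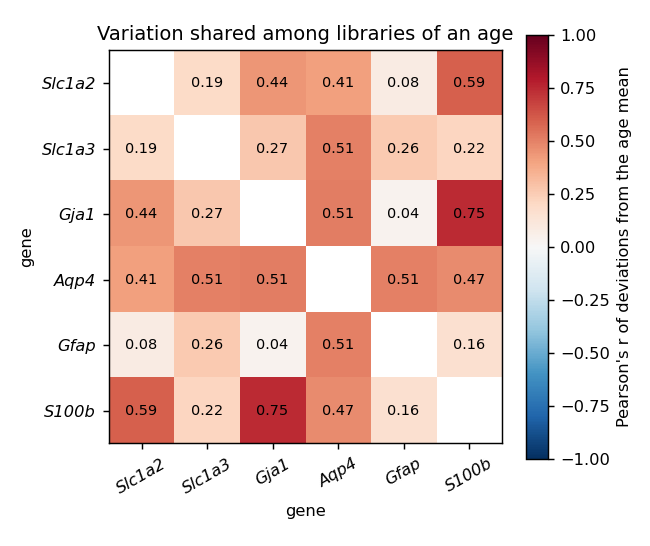
Pearson's r between the members' deviations from the age mean of log2(FPKM + 0.5) over 25 libraries; both axes list the genes and colour gives r from -1 to 1. The highest value is that of Gja1 with S100b, and Gfap has r from 0.04 with Gja1 and 0.08 with Slc1a2 to 0.505 with Aqp4.

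The other gene IDs whose levels ran most like the members over the 25 libraries were ENSRNOG00000007462 and ENSRNOG00000008169, with a mean Pearson's r of 0.785 and 0.783 to the 6 genes. This likeness holds the differences between ages, and the libraries are shared by all genes, so it is a description only. ENSRNOG00000007462 went from 9.42 ± 1.09 FPKM at P8 to 33.7 ± 6.59 at P14, 54.6 ± 10.2 at P21 and 50.2 ± 9.43 at P70 (SD, n = 5), with r of 0.982 to Slc1a2. ENSRNOG00000008169 went from 3.78 ± 0.524 FPKM at P8 to 14.8 ± 1.35 at P21 and 14.2 ± 2 at P70 (SD, n = 5), with r of 0.957 to Gja1 and 0.503 to Slc1a3.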

How the data were processed

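Transcripts were measured by RNA sequencing of ribosomal-RNA-depleted total RNA (50 bp single-end reads, per the labels' protocols) in 25 libraries grouped by the age in their labels, with replicate numbers in accession order. The authors deposited 1 table of FPKM values with 1 row per Ensembl ID. Reads were aligned to rn4 with gsnap per the labels' protocols, while BWA 0.6.1, bedtools and Cufflinks are listed, with no role, per the submitters' processing notes. The annotation, the strand setting and the handling of shared reads were not given in the sources used here. Since FPKM is relative, a few very abundant transcripts can shift the other values of a library.

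Columns were matched to samples by title. limma 3.58.1 in R 4.3.3 was fitted to log2(FPKM + 0.5) of the 14128 IDs with at least 1 FPKM in at least 5 libraries, with 1 mean per age, 20 residual degrees of freedom, a trend and two-sided tests adjusted over all IDs within each contrast. A change on this scale understates that of low IDs. Of 10 age pairs tested, 5 were planned and 5 were added after seeing the data. Ratios of members were compared by exact permutation (252 splits), and within-age correlations by 100000 shuffles within ages. Relative depth came from the steps of sparse IDs' values. A member's reads counted as recovered where all 25 values lay within 0.05 reads of a whole number. Alternatives were pseudocounts of 0.1 and 1, no filter, a mean of at least 5 FPKM, 3 other scalings, fits of 2 ages, a random block and leaving out each library.

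All 6 members are named, with the 2 IDs of highest mean r to them. Lists of other astrocyte, glutamate and cell type genes were not analysed here, since the other IDs could not be paired with gene names. The members and lists were chosen with earlier results of these data known.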

Additional observations from a re-analysis of the deposited data

Results flagged for a closer look

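In each of 35 sets of 5 libraries (the 6 genes and the Slc1a2 share at 5 ages) a library far from the other 4 was looked for, and 2 were found, where chance gives about 1.75 (1 in 20). The share is computed from Slc1a2, so these 2 are not independent, and their count cannot be weighed against 1.75. Both came from P21 replicate 5, the least deep library (relative depth 0.386). Its 10 highest IDs held 67% of its FPKM total, the largest such share of any library. Slc1a2 was at 420 FPKM there, against 270 to 297 in the other P21 libraries. Slc1a2 made up 72.8% of the summed transporters there, against 66.1% to 66.9%. Without this library the P21 share was 66.5% ± 0.432 (SD, n = 4).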

How the results depend on the processing

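With FPKM totals made equal, 3 members were called from P8 to P14, 0 from P14 to P21, 3 from P8 to P70, 3 over the 5 ages and 1 from P14 to P70. Under the same setting Gfap was 0.02 from P8 to P14, Aqp4 -0.27 from P14 to P21 and 0.02 from P35 to P70, Slc1a3 0.01 from P21 to P35 and Gfap 0.09 from P35 to P70, each of opposite sign to the value reported. Slc1a3 from P14 to P21 changed sign to 0.10 with median-of-ratios scaling, 0.07 with quantile normalization and 0.003 with the random block. Gfap from P35 to P70 was 0.05 with quantile normalization. None of these values of opposite sign was called. Equal totals moved the median of all IDs from -0.058 to 0.176 at the first step and from -0.093 to -0.376 at the second.

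Leaving out 1 library gave, from P14 to P21, -0.05 to 0.03 for Slc1a3 and -0.02 to 0.09 for Aqp4. From P35 to P70 it gave -0.10 to 0.10 for Gfap, -0.02 to 0.22 for S100b and -0.01 to 0.11 for Slc1a2. No call of a member in the 5 planned contrasts was lost or gained by leaving out 1 library. Within-age r changed sign with median-of-ratios scaling for Slc1a2 with Gfap (-0.0677), Slc1a3 with Gfap (-0.00566) and Gja1 with Gfap (-0.117). The cause of these differences was not tested.

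No paired analysis was possible because the number that follows the age in each sample title does not recur at another age. With that number as a random block (consensus correlation 0.33), every call of a member in the 5 planned contrasts was the same. Counting alone gave S100b at P8, its lowest age, a spread of 4.91%, against 19.7% observed.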

Other observations

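The spread of Slc1a2 among the P35 libraries was small: its coefficient of variation was 2.07%, and its SD on the log2 scale was below that of all but 0.198% of the gene IDs tested at that age. With median-of-ratios scaling the coefficient was 9.61% and 35.3% of IDs had a smaller SD.

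Gfap at P8 had a coefficient of variation of 34.7% as deposited and 34.2% with median-of-ratios scaling, the widest of the 6 genes at that age, from 15.7 FPKM in replicate 3 to 42.1 in replicate 4. In the same 2 libraries S100b was at 14.6 and 10.1 FPKM and Aqp4 at 32.7 and 38.6.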
